A study of Mus musculus with 6 samples.

Results

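Coro2a, Osbpl3, Sectm1b, Lgals7 and Hao2 are 5 mouse genes whose RNA levels were lower in ovaries of the cyclophosphamide group than in control ovaries. They were picked by symbol from the 46078 genes measured, for exactly that difference and with no numeric threshold, so their lower values in cyclophosphamide libraries describe how they were chosen and no test is given for it. All 5 symbols were found once in every library. The RNA came from ovaries of C57BL/6 mice of 8 to 9 weeks of age and was sequenced in 3 libraries labelled CTX, for cyclophosphamide, and 3 labelled control. Cyclophosphamide is a DNA-alkylating drug of cancer chemotherapy that damages ovarian follicles. The dose, the route, the time after treatment, what the control animals received and the number of animals behind each library were not stated in the labels, so the spread between libraries may be partly technical.

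The 5 genes belong to separate families. Coro2a encodes a coronin, one of the WD-repeat proteins that bind actin filaments, and its protein was also found in the NCoR complex, a repressor of transcription recruited by nuclear receptors. Osbpl3 encodes ORP3, an oxysterol-binding protein relative that moves lipids at contact sites between the endoplasmic reticulum and the plasma membrane, where it binds the anchor protein VAPA and acts with the small GTPase R-Ras in cell adhesion. Sectm1b encodes a small protein of the cell surface and of secretions; its human relative SECTM1 is a ligand of CD7, a receptor on T and NK cells. Lgals7 encodes galectin-7, a beta-galactoside-binding lectin best known from stratified epithelia, which p53 induces in human cells. Hao2 encodes a peroxisomal oxidase of 2-hydroxy acids, a flavin enzyme that releases hydrogen peroxide and is known mainly from kidney and liver.

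The genes lie on separate chromosomes and their promoters differ widely in base composition. In mm10 coordinates Coro2a spans chromosome 4 from 46536937 to 46602202, Osbpl3 chromosome 6 from 50293330 to 50456201, Sectm1b chromosome 11 from 121053458 to 121063569, and Hao2 chromosome 3 from 98874521 to 98893239, all on the minus strand. Lgals7 spans chromosome 7 from 28863853 to 28866284 on the plus strand. All 5 are annotated as protein coding. The 250 bases before each RefSeq start (GRCm38.p6, the assembly of mm10) are shown 5′ to 3′ on the strand of the gene, so that genes whose levels followed each other across libraries can be compared, with capitals for every match to a searched motif. For Coro2a the upstream of its 2 listed starts is shown.

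Coro2a: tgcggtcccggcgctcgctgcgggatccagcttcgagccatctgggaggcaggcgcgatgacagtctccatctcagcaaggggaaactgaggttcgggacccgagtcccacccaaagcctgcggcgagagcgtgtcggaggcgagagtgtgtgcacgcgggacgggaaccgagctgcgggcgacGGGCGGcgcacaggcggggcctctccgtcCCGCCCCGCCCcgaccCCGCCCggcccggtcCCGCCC
Sectm1b: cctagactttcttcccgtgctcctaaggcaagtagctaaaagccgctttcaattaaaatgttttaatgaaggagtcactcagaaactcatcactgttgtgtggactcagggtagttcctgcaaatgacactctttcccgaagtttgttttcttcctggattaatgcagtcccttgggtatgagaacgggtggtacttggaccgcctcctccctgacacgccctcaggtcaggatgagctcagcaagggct
Lgals7: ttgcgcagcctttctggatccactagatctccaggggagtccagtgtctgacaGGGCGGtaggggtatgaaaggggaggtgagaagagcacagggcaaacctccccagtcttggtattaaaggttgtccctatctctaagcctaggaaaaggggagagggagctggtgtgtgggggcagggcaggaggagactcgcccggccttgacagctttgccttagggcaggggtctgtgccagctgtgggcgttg
Osbpl3: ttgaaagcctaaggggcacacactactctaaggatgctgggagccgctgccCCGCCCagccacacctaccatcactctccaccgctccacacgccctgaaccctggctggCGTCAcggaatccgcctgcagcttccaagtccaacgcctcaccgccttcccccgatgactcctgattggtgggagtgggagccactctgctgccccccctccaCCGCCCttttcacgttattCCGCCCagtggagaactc
Hao2: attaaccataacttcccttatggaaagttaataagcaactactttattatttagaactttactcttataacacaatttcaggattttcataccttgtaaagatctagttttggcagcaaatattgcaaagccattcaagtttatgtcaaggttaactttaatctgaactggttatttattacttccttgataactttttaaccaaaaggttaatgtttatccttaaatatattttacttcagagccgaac

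These windows are chr4:46601930-46602179 for Coro2a, chr11:121063570-121063819 for Sectm1b, chr7:28864136-28864385 for Lgals7, chr6:50456171-50456420 for Osbpl3 and chr3:98893231-98893480 for Hao2. The Coro2a window was 73.6% G and C with 33 CpG pairs, a share above that of 94.7% of the 32851 promoter windows in the table. The Hao2 window was at the other end, with 28.4% G and C, 1 CpG and only 0.956% of windows lower. Osbpl3 (62.8%), Lgals7 (58.8%) and Sectm1b (48.4%) lay between, around a median of 52.4% over all windows. The window of the other Coro2a start, chr4:46566441-46566690, had 49.2% G and C and no match. Both Coro2a windows and the Lgals7 window lie wholly inside the spans given above, which join all annotated transcripts, the Osbpl3 and Hao2 windows overlap theirs by 31 and 9 bases, and the Sectm1b window lies outside.

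The motifs were searched on both strands. GGGCGG stands for the GC box bound by Sp1-like factors. AAGGTCA stands for the core recognised by the steroidogenic receptor SF-1. TGANTCA stands for the AP-1 motif. TATAAA stands for the TATA box. TGACG stands for the half-site of the cyclic AMP response element (CRE). CACGTG stands for the E-box of clock and Myc factors. The GC box occurred in 5 copies before the upstream Coro2a start, of which a pair shares 1 base, in 3 copies before Osbpl3 and in 1 copy before Lgals7, and 32.7% of all windows hold it. The CRE half-site occurred before Osbpl3 alone among the 5 genes, and 17.8% of all windows hold it. No match to the SF-1 core, the AP-1 motif, the TATA box or the E-box was found, where 4.08%, 6.75%, 12.4% and 6.02% of all windows hold one. Matches to different motifs did not overlap. Neither the base composition nor the motifs were shared by all 5 genes.

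Levels are in RPKM, reads scaled by gene length and library depth, as the authors deposited them. The scale of the values corresponds to about 17200000 to 22100000 reads in CTX libraries and 15800000 to 16800000 in control libraries. In limma, on log2(RPKM + 1) and with Benjamini-Hochberg adjustment, 0 of 14535 genes passed as higher and 0 as lower in CTX, with 501 genes at an unadjusted p under 0.05. The libraries did not divide by treatment in the sums of luteal and of oocyte markers. The summed level of 10 luteal markers was 10481, 3320.3 and 3167.5 RPKM in CTX 1, 2 and 3, and 8140.8, 9182.9 and 4201.6 RPKM in controls 1, 2 and 3. The summed level of 12 oocyte markers ran the other way, with 114.1, 411.9 and 406.3 RPKM in CTX 1, 2 and 3 and 179.5, 155.0 and 366.7 RPKM in controls 1, 2 and 3. CTX 1 and control 3 thus stood apart from the other libraries of their groups. Single markers, picked here for it, did divide by treatment: the granulosa gene Inhbb had 20.26 to 71.07 RPKM in CTX and 80.34 to 255.08 in control, and the theca gene Insl3 had 16.9 to 18.01 RPKM in CTX and 7.38 to 13.19 in control, with a limma adjusted p of 1.00 for each. In whole tissue, fewer cells of a type and less RNA per cell cannot be told apart.

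Coro2a had the widest gap between the groups, in proportion to its level, of the 5 genes. Its level was 2.37, 3.57 and 3.03 RPKM in CTX 1, 2 and 3, and 8.97, 8.16 and 11.76 RPKM in controls 1, 2 and 3. The lowest control library was 2.29 times the highest CTX library, and the groups did not overlap. The mean was 2.99 ± 0.601 RPKM in CTX and 9.63 ± 1.89 in control (SD, n = 3 each here and throughout), a CTX-to-control ratio of 0.31. On the log2(RPKM + 1) scale, which understates differences of low genes, the difference CTX minus control was −1.41 ± 0.18 (SE). The values rest on about 278 to 510 reads in CTX libraries and 840 to 1273 in control libraries.

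Osbpl3 had 4.4, 2.77 and 2.86 RPKM in CTX 1, 2 and 3, and 8.35, 7.49 and 7.43 RPKM in controls 1, 2 and 3. The groups did not overlap. The coefficient of variation was 27.4% in CTX, with CTX 1 above CTX 2 and 3, and 6.64% in control. The mean was 3.34 ± 0.916 RPKM in CTX and 7.76 ± 0.515 in control, a ratio of 0.431 and a log2 difference of −1.03 ± 0.17.

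Sectm1b, the lowest of the 5, had 0.79, 1.61 and 1.75 RPKM in CTX 1, 2 and 3, and 3.66, 2.97 and 3.71 RPKM in controls 1, 2 and 3. It rests on few reads, about 40 in CTX 1, 83 to 99 in CTX 2 and 3 and 132 to 173 in control libraries. The mean was 1.38 ± 0.519 RPKM in CTX and 3.45 ± 0.414 in control, a ratio of 0.401 and a log2 difference of −0.92 ± 0.20.

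Lgals7 had the smallest difference on the log2 scale, with levels of 6.42, 8.52 and 8.24 RPKM in CTX 1, 2 and 3, and 12.2, 12.1 and 14.26 RPKM in controls 1, 2 and 3. Its ratio of CTX to control was 0.601, from means of 7.73 ± 1.14 and 12.9 ± 1.22 RPKM, and its log2 difference was −0.67 ± 0.14. Galectin-7 is a gene of stratified epithelium. Of the markers of that tissue, the keratins Krt5 and Krt4 and involucrin (Ivl), named here with their values known, were at 0 RPKM in all 6 libraries. Of 12 stratified epithelium markers only Sfn and Krt10 passed the filter, and none of the other 10 exceeded 1.79 RPKM in any library.

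Hao2 was by far the most abundant, with a mean RPKM above that of 96.8% of tested genes, against 17.6 to 56.2% for the other 4 genes. It had 103.63, 45.14 and 47.89 RPKM in CTX 1, 2 and 3, and 123, 118.88 and 131.72 RPKM in controls 1, 2 and 3. CTX 1 lay near the controls: the lowest control library exceeded CTX 1 by only 15.2 RPKM, and CTX 2 and 3 were at 36.2 and 38.5% of the control mean. The mean was 65.6 ± 33.0 RPKM in CTX and 124.5 ± 6.56 in control, a ratio of 0.526 and a log2 difference of −1.02 ± 0.32. Without CTX 1 the difference was −1.40. Of 7 kidney tubule and liver markers, 6 stayed at or below 0.52 RPKM in every library; Apoa1, the exception, had 9.01 to 41.65 RPKM in CTX and 7.75 to 24.57 in control.

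**Figure D1:**
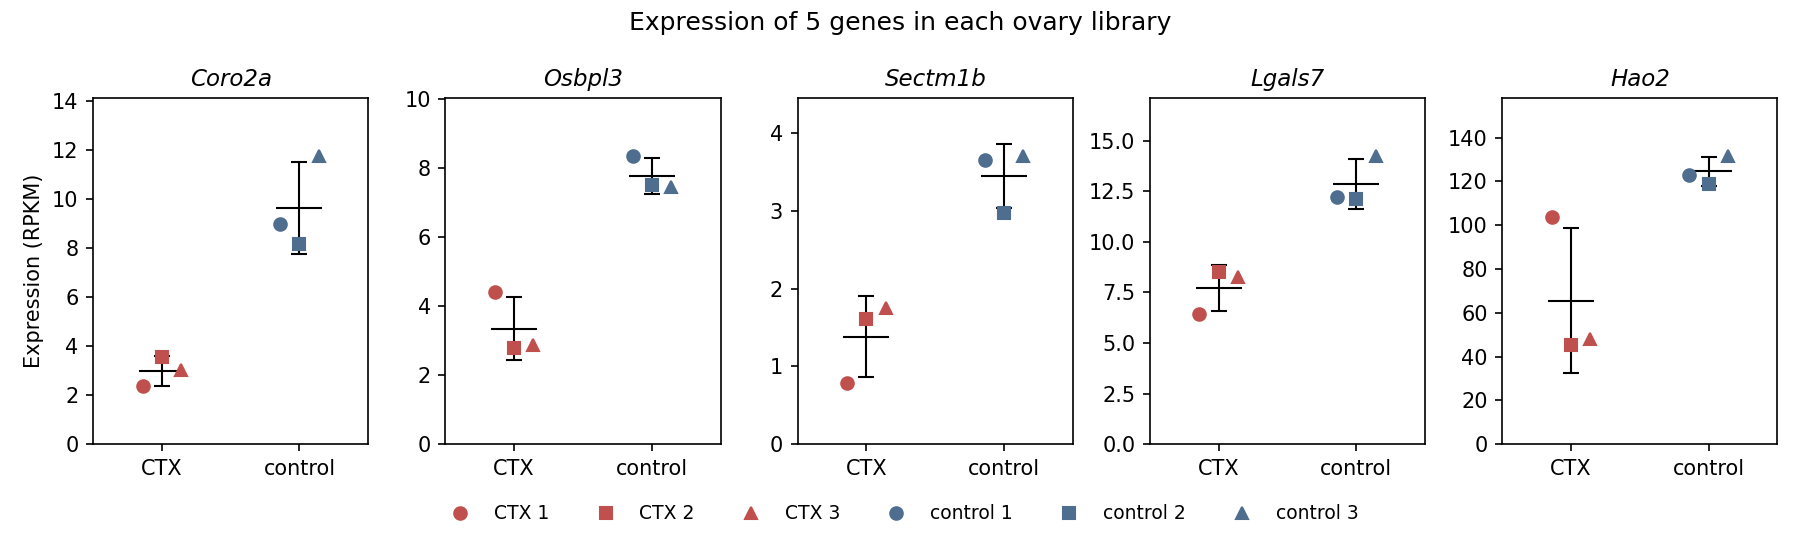
RPKM (vertical axes, each starting at 0) of the 5 genes in CTX and control ovary libraries; each symbol is 1 library, the horizontal bar is the mean and the whiskers are 1 SD (n = 3). In every panel the 3 CTX libraries lie below the 3 control libraries, with the narrowest gap in proportion for Hao2, where CTX 1 had 103.63 RPKM and control 2 had 118.88.

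In all 5 genes every CTX library was below every control library, as their choice would lead to; among all tested genes this held for 800 of 14535 (5.5%), so nothing is read from the count. By fitted log2 difference the 5 genes ranked 16th (Coro2a), 62nd (Osbpl3), 67th (Hao2), 96th (Sectm1b) and 256th (Lgals7) from the lowest. These ranks describe the choice as well.

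The choice did not use how the libraries of a group compare with each other, and there the 5 genes fell into 2 patterns. CTX 1 had the lowest level of the CTX libraries for Coro2a, Sectm1b and Lgals7, at 0.718, 0.47 and 0.766 times the mean of CTX 2 and 3. For Osbpl3 and Hao2 it had the highest, at 1.56 and 2.23 times that mean. Among all tested genes, 87.3% had a lower ratio than Osbpl3 and 95.1% a lower one than Hao2, against 12.7% for Sectm1b, 33.4% for Coro2a and 38.3% for Lgals7. In the control libraries Coro2a, Sectm1b, Lgals7 and also Hao2 were lowest in control 2 and highest in control 3. Osbpl3 was highest in control 1. Hao2 thus went with the first 3 genes among controls and with Osbpl3 among CTX libraries. Some of these control differences were small. Lgals7 had 12.2 and 12.1 RPKM in controls 1 and 2, and Sectm1b 3.66 and 3.71 in controls 1 and 3.

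**Figure D2:**
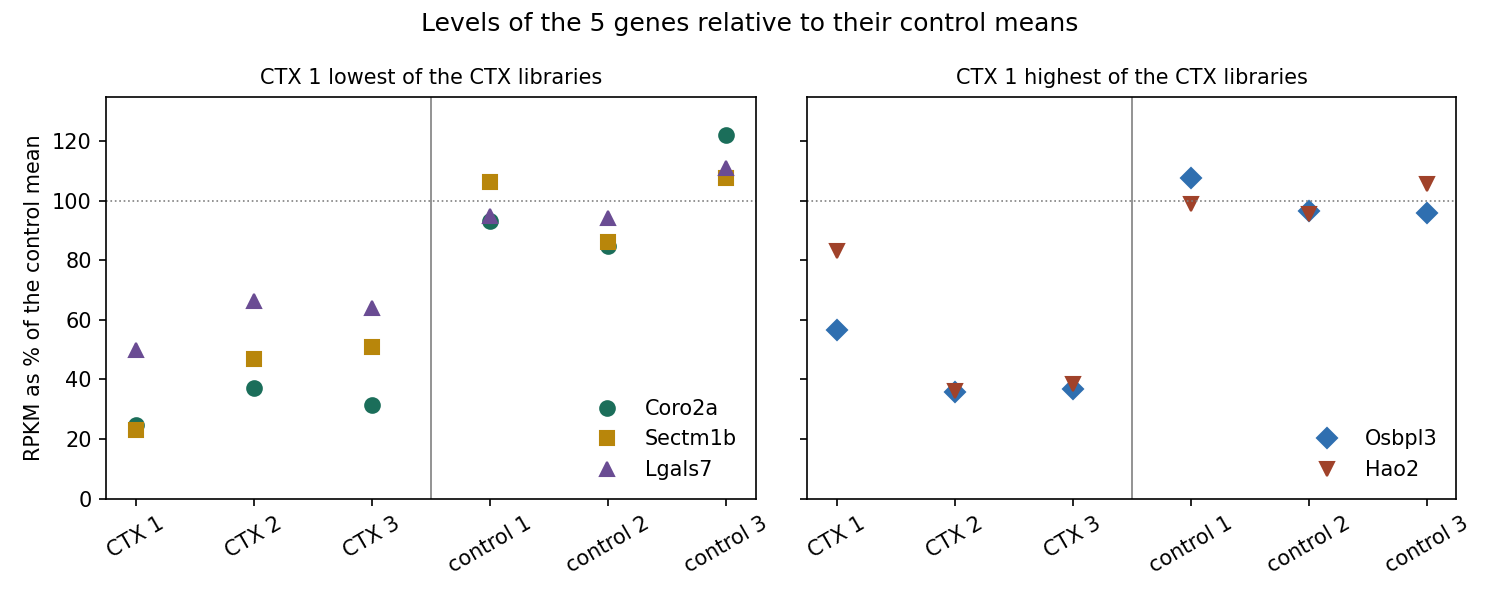
RPKM of each gene as a percentage of its own control mean (vertical axis, from 0) in the 6 libraries (horizontal axis; the dotted line is the control mean). CTX 1 is the lowest CTX library for Coro2a (24.6%), Sectm1b (22.9%) and Lgals7 (49.9%), and the highest for Osbpl3 (56.7%) and Hao2 (83.2%).

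The Pearson correlation of log2(RPKM + 1) over the 6 libraries was higher within the 2 patterns than between them. It was 0.99 between Coro2a and Lgals7, 0.98 between Sectm1b and Lgals7, 0.96 between Coro2a and Sectm1b and 0.94 between Osbpl3 and Hao2. Between the patterns, Osbpl3 correlated at 0.86 with Coro2a, 0.77 with Lgals7 and 0.75 with Sectm1b, and Hao2 at 0.69 with Coro2a, 0.57 with Lgals7 and 0.51 with Sectm1b, so the division was less sharp for Osbpl3 than for Hao2. All genes share the same 6 libraries, and a shared difference between the groups alone raises these values. The patterns were drawn from these same levels, so a higher correlation within them is no separate support for the division.

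The summed markers of ovarian surface epithelium and of mesothelium, which cover the organ, moved with Coro2a, Sectm1b and Lgals7. Their summed level over 14 genes was 83.4, 131.9 and 128.1 RPKM in CTX 1, 2 and 3, and 153.1, 129.4 and 180.3 RPKM in controls 1, 2 and 3. Within each group the order of these sums was the order of Coro2a and of Lgals7, and for Sectm1b only CTX 2 and 3 exchanged places. For Lgals7 the order of controls 1 and 2 is a near tie, at about 179 reads in each. The summed oocyte, granulosa and adipocyte markers had the order of the surface sums within each group, so the order was not particular to surface markers. Single surface markers, named here with their values known, did not all follow the sum. Upk3b, Krt19, Epcam, Wt1, Bnc1 and Aldh1a2 had its order within each group, and the other surface markers did not. The surface marker sums of the groups overlapped. CTX 2 and control 2 had nearly the same sum, but single markers differed between them in both directions. Wt1 had 24.28 RPKM in CTX 2 and 13.81 in control 2, and Aldh1a2 had 25.53 and 34.15. For 7 of the 14 markers no CTX library reached the lowest control, against 5.5% of all tested genes. Among them was Aldh1a2, the most abundant, a retinoic acid-synthesizing enzyme with 21.7 ± 4.31 RPKM in CTX and 40.9 ± 7.85 in control. Wt1, the next in level, had 8.43, 24.28 and 23.68 RPKM in CTX and 14.72, 13.81 and 24.29 in control. Krt8, a keratin of simple epithelia, was the one marker of the 14 with a positive log2 difference (0.23), with 19.2 ± 2.12 RPKM in CTX and 16.3 ± 3.01 in control. No marker passed the limma test. Of 8 lymphocyte markers only the immunoglobulin gene Igkc passed the filter on low values, and it had the same order within each group, with 0.73, 9.36 and 6.63 RPKM in CTX 1, 2 and 3 and 9.09, 7.7 and 11.31 RPKM in controls 1, 2 and 3. The other 7, which include the T cell genes Cd3e and Cd4, did not follow that order, with sums of 2.09, 3.05 and 3.34 RPKM in CTX and 3.03, 3.02 and 3.02 in control. Beyond these values the part of surface cells and of Igkc-expressing cells in the result was not tested.

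Osbpl3 and Hao2 shared with the luteal markers the high level of CTX 1 among CTX libraries, but not the order of the controls. The luteal sum was highest of all in CTX 1 (10481 RPKM). The Hao2 level of CTX 1 lay below every control, as the choice of Hao2 would lead to. Among controls the luteal sum was lowest in control 3 (4201.6 RPKM), where Hao2 was highest (131.72 RPKM). The sum of macrophage markers, 8 genes, had nearly the order of Osbpl3 within each group. It was 515.4, 341.3 and 338.5 RPKM in CTX 1, 2 and 3 and 529.0, 405.7 and 359.2 RPKM in controls 1, 2 and 3. The order of these sums was that of Osbpl3 among controls, and among CTX libraries only CTX 2 and 3 exchanged places. The sums of the groups overlapped. Osbpl3 was nearly level in controls 2 and 3, with 7.49 and 7.43 RPKM, so that part of the order is a near tie. Lyz2 made up the largest part of each sum, with 281.9, 189.19 and 189.33 RPKM in CTX and 317.89, 228.2 and 177.76 in control. Single markers, named here with their values known, did not all follow the sum. Csf1r and Mrc1 were lowest of the CTX libraries in CTX 1, and the other macrophage markers were highest there. Among controls only Lyz2, Cd68 and C1qc had the order of Osbpl3. The 7 endothelial markers summed to 116.0, 93.5 and 89.5 RPKM in CTX 1, 2 and 3 and to 113.9, 121.3 and 112.3 RPKM in controls 1, 2 and 3. The part of these cell types in the result was not tested.

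**Figure D3:**
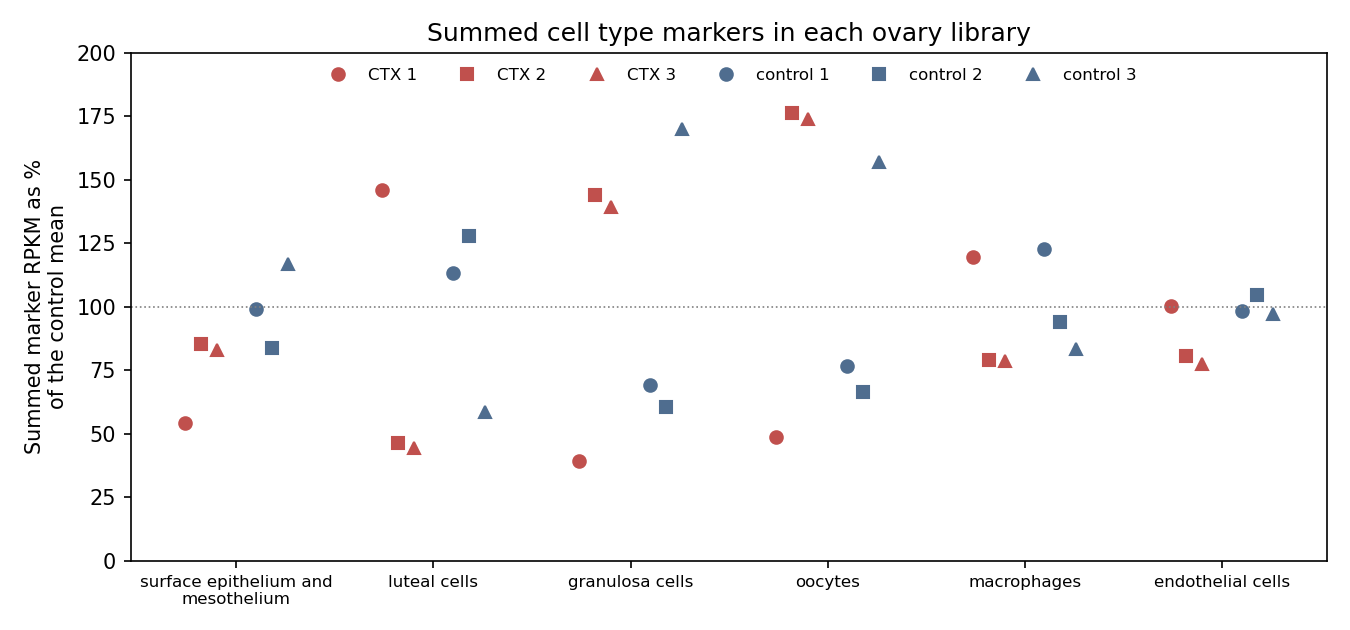
Summed RPKM of 6 marker lists in each library as a percentage of the control mean of that list (vertical axis, from 0; the dotted line is the control mean). Surface markers are lowest in CTX 1 (83.4 RPKM) and highest in control 3 (180.3 RPKM), while luteal markers are high in CTX 1 and controls 1 and 2 and oocyte markers are low there.

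Among the other coronins no gene passed the test in either direction. The 6 relatives of Coro2a had a median log2 difference of 0.00, where the median over all tested genes was −0.01, and none separated the groups. Coro1b, the most abundant, had 70.6 ± 9.09 RPKM in CTX and 67.8 ± 1.5 in control, Coro1c had 10.7 ± 1.19 and 11.1 ± 1.67, Coro7 5.69 ± 1.34 and 5.18 ± 0.681, and the leukocyte coronin Coro1a 5.18 ± 1.77 and 5.0 ± 1.37. Coro2b, the other class II coronin and chosen with its values known, had 1.58, 1.98 and 1.77 RPKM in CTX 1, 2 and 3 and 1.67, 2.13 and 1.72 in controls 1, 2 and 3. In length-scaled level Coro2a was between Coro1a and Coro2b in CTX ovaries, and near Coro1c in control ovaries.

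Genes that work with Coro2a gave no calls either. The 6 other genes of the NCoR complex had a median log2 difference of −0.11, with 32.2 ± 3.78 RPKM in CTX and 31.1 ± 4.08 in control for Gps2, 27.4 ± 3.83 and 27.2 ± 1.02 for the deacetylase Hdac3, and 23.5 ± 3.67 and 25.7 ± 0.361 for Tbl1x. The 10 Arp2/3 and cofilin genes, which branch and sever actin filaments, had a median of 0.03. Cofilin 1 (Cfl1) had 524.9 ± 192 RPKM in CTX and 495.7 ± 68.8 in control, the Arp2/3 subunit gene Arpc2 had 86.9 ± 18.4 and 78.5 ± 4.55, Arpc5 57.5 ± 17.7 and 56.3 ± 5.21, and Arpc4 53.6 ± 8.53 and 50.0 ± 1.64. Cfl2, chosen with its values known, was the one gene of the 10 whose CTX range (35.67 to 41.23 RPKM) lay below its control range (42.83 to 46.3 RPKM), and its adjusted p was 1.00 in limma.

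Of the 11 relatives of Osbpl3, 9 were tested, and Osbp2 and Osbpl10 were below the filter. None of the 9 passed, none separated the groups, and their median log2 difference was 0.03. The founding member Osbp had 23.4 ± 1.03 RPKM in CTX and 23.9 ± 1.31 in control, Osbpl11 had 19.7 ± 2.48 and 19.8 ± 1.58, and Osbpl9 17.9 ± 0.766 and 18.1 ± 1.09. Osbpl5, which carries phosphatidylserine, divided the libraries another way, with 11.09, 32.1 and 29.76 RPKM in CTX 1, 2 and 3 and 15.81, 14.72 and 24.7 in controls 1, 2 and 3, low where luteal markers were high. Among the partners of ORP3, Vapa had 227.02, 98.54 and 105.38 RPKM in CTX and 148.82, 150.07 and 103.63 in control, Vapb 18.6 ± 1.31 and 17.9 ± 0.999, and Rras 49.58, 27.38 and 24.72 in CTX and 34.28, 35.59 and 36.98 in control. These 3 genes also gave no call.

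Sectm1a, the paralog of Sectm1b, lies 3.84 kb from it on the same strand. Sectm1a had 1.01, 1.3 and 1.35 RPKM in CTX 1, 2 and 3, and 1.52, 1.15 and 1.51 RPKM in controls 1, 2 and 3. Its groups overlapped, with a log2 difference of −0.11 ± 0.15 and a limma adjusted p of 1.00. Sectm1b was below Sectm1a in CTX 1, and above it in CTX 2 and 3 and in every control library. Cd7, the receptor gene on the other side of Sectm1b, had 1.31, 4.12 and 4.82 RPKM in CTX and 2.11, 1.33 and 4.63 in control, with the same division of libraries as the oocyte markers. Sectm1b shares no stretch of 36 bases with the transcripts of Sectm1a or of any other annotated gene, so reads of at least that length and without mismatches would not be shared.

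The other galectins gave no call. Of the 9 relatives of Lgals7, 8 were tested and Lgals6 had no row. The median log2 difference was −0.10, with 4 of 8 negative. In 3 of the 8, Lgals2, Lgals4 and Lgals8, the groups did not overlap, CTX being lower, against 5.5% of all tested genes. This count was not tested, and nothing is read from it. Lgals2 and Lgals4 were named only once these values were known. Lgals2 had 5.79, 4.64 and 3.49 RPKM in CTX and 6.39, 7.58 and 7.67 in control, and Lgals8, a galectin with a pair of sugar-binding domains, had 17.65, 18.68 and 19.36 RPKM in CTX and 24.37, 23.65 and 21.93 in control. Their unadjusted p-values in limma were 0.0196 and 0.0198 and the adjusted p was 1.00 for each. Lgals4, which lies 22.1 kb from Lgals7, had 11.76, 10.97 and 10.58 RPKM in CTX and 12.7, 12.19 and 15.79 in control. The more abundant galectins were higher in CTX 1 than in CTX 2 and 3: Lgals1 had 375.06, 205.94 and 176.5 RPKM in CTX and 250.28, 225.49 and 205.38 in control, Lgals3 75.95, 29.61 and 29.44 in CTX and 50.87, 36.93 and 24.36 in control, and the galectin-related gene Lgalsl 32.34, 17.66 and 17.49 in CTX and 26.3, 40.16 and 23.07 in control.

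**Figure D4:**
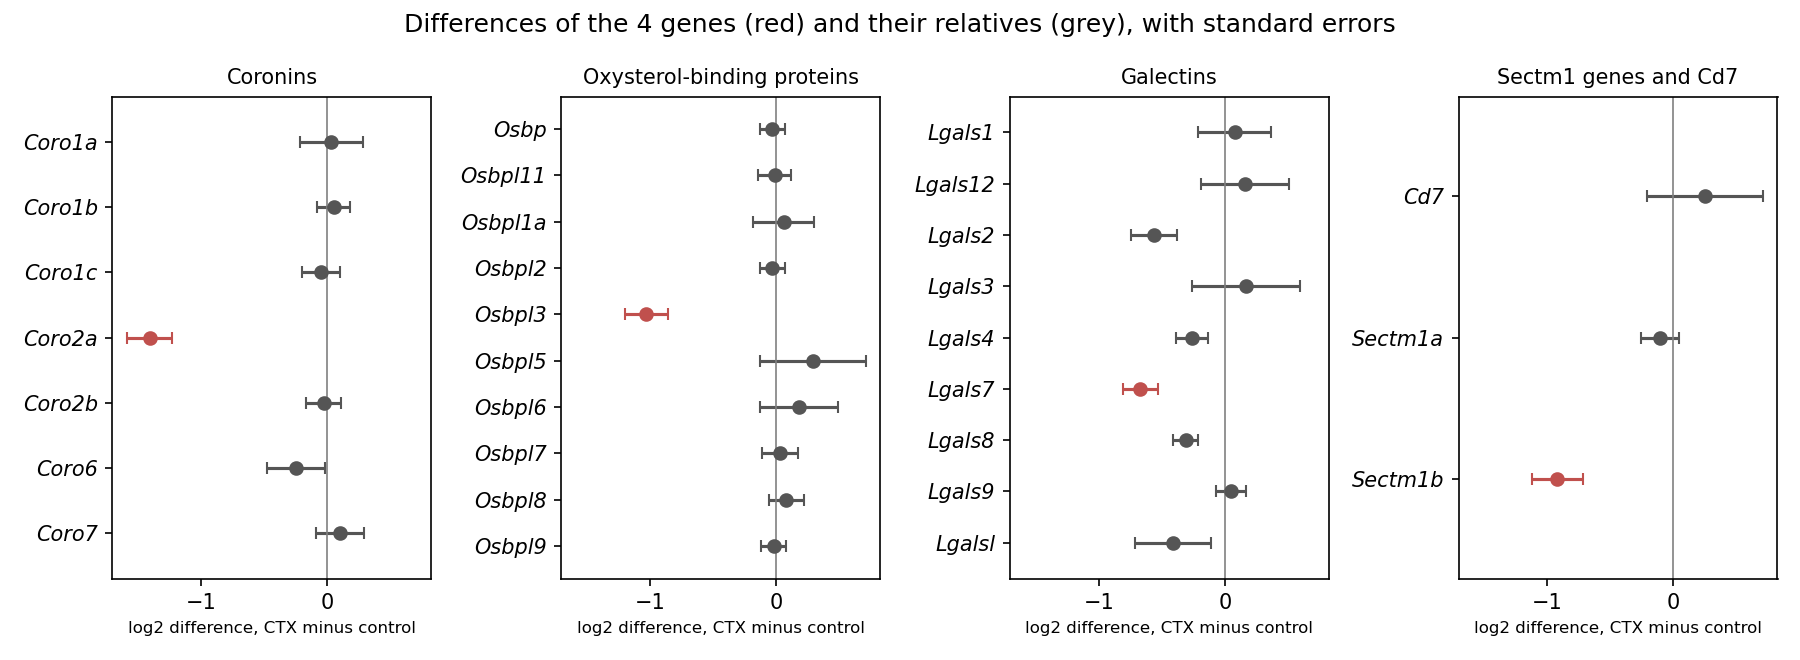
Fitted log2 difference, CTX minus control, on the log2(RPKM + 1) scale (horizontal axis) with its standard error for tested coronins, oxysterol-binding proteins, galectins and the Sectm1 genes with Cd7. Coro2a (−1.41), Osbpl3 (−1.03), Lgals7 (−0.67) and Sectm1b (−0.92), in red, were chosen for low CTX values; the next lowest is Lgals2 at −0.56.

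For Hao2 the relative is Hao1, the glycolate oxidase of liver, which was at 0 to 0.07 RPKM in CTX and 0 to 0.03 RPKM in control. Of 22 other genes of peroxisomal oxidases and beta-oxidation, 17 were tested, none passed, and the median log2 difference was 0.00. Catalase (Cat), which breaks down the hydrogen peroxide such oxidases release, had 49.2 ± 1.98 RPKM in CTX and 56.6 ± 5.41 in control. Hsd17b4, an enzyme of peroxisomal beta-oxidation, was the one tested gene with all CTX libraries above all controls (47.1 ± 3.69 RPKM in CTX and 42.3 ± 0.636 in control, limma adjusted p 1.00). Scp2, a sterol carrier and thiolase, had 42.5 ± 14.7 RPKM in CTX and 41.0 ± 7.15 in control, and Phyh, which starts alpha-oxidation, 37.8 ± 3.54 and 41.3 ± 5.69.

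Over all lists of relatives and partners, 61 genes were tested and 0 passed. In 4 of them (6.56%) every CTX value was below every control value, near the 5.5% of all tested genes, and in 1 all lay above, against a background of 3.32%. A p that misses the threshold does not show that these genes were the same in both groups.

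The nearest tested gene on each side of each of the 5 genes was looked up after the values were seen. In 2 of these 10 neighbours, Trim14 and Lgals4, all CTX libraries were below all controls, against 5.5% of all tested genes. In the other 8 the groups overlapped. Lgals4 is also among the galectins described above, and nothing is read from so small a count. Trim14, 796 bases from the end of Coro2a, had 0.83, 2.41 and 3.13 RPKM in CTX and 3.85, 3.36 and 5.07 in control, again with no overlap, but it missed the test (log2 difference −0.77 ± 0.32, limma adjusted p 1.00). Gm16731, a transcript on the strand opposite to Coro2a and overlapping it, had 0.06, 0.24 and 0.06 RPKM in CTX and 0.95, 0.62 and 0.58 in control. Gm16731 shares 264 of the 6429 stretches of 36 bases in Coro2a, and since the labels do not state whether counting used the strand, its reads and those of Coro2a cannot be told apart there. In all, 4.3% of the stretches of Coro2a also occur in other genes, and 0 of those of Osbpl3, Lgals7 and Hao2.

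Hao2 lies 14.7 kb from Hsd3b1, the abundant steroid dehydrogenase gene of luteal and interstitial cells. Hsd3b1 had 5396.64, 2029.57 and 1893.89 RPKM in CTX 1, 2 and 3 and 4367.24, 4489.12 and 2878.89 in controls 1, 2 and 3. Both genes were high in CTX 1 and low in CTX 2 and 3, but control 3 was the lowest control for Hsd3b1 and the highest for Hao2. The genes nearest to Osbpl3 were Dfna5, with 1.39, 2.42 and 2.58 RPKM in CTX and 1.34, 1.2 and 2.65 in control, and Cycs, with 2.38 ± 0.450 and 2.37 ± 0.398. Anks6, beyond Coro2a, had 2.05 ± 0.398 RPKM in CTX and 2.19 ± 0.17 in control, Actn4, beyond Lgals7, had 60.0 ± 6.77 and 56.9 ± 1.68, and Wars2, beyond Hao2, had 2.76 ± 0.134 and 3.07 ± 0.471.

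The genes whose levels across the 6 libraries were most like those of the 5 were sought among 4915 others with an SD of at least 0.3 on the log2 scale, and their likeness, a Pearson correlation, is again a description raised by any shared difference between the groups. For Coro2a they were Naip5, a sensor of bacterial flagellin (0.991), Lgals7 (0.986) and the noncoding Gm14486 (0.983). For Lgals7 they were Abcb1a (0.998), Dhdh (0.995) and Aldh1a2 (0.988), and for Sectm1b Extl1 (0.993), the antisense transcript A530020G20Rik (0.992) and Dhdh (0.991). Abcb1a, the gene of the drug efflux pump P-glycoprotein, had 5.91, 7.77 and 7.57 RPKM in CTX and 10.35, 10.47 and 11.74 in control. Dhdh, a dihydrodiol dehydrogenase gene named for both Sectm1b and Lgals7, had 11.08, 14.76 and 14.35 RPKM in CTX and 20.54, 19.96 and 22.15 in control.

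For Osbpl3 and Hao2 the like genes were others. Osbpl3 was most like Ldb2, a LIM domain-binding cofactor (0.997), C1rl, a complement C1r-like protease (0.995), and the retinol dehydrogenase gene Adh7 (0.986). Ldb2 had 8.01, 6.12 and 6.01 RPKM in CTX and 11.69, 10.88 and 10.35 in control. Hao2 was most like the sugar phosphate transporter gene Slc37a2 (0.987), the clock-controlled transcription factor gene Dbp (0.986) and Pgbd5 (0.982). Dbp had 48.05, 22.58 and 22.01 RPKM in CTX and 52.55, 58.43 and 71.3 in control, with CTX 1 near the controls as in Hao2. No gene was named for members of both patterns, which follows from the correlations of at most 0.86 between members of different patterns.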

How the data were processed

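Libraries from 3 CTX and 3 control ovary samples were compared; per the labels' protocols, 1 µg of Trizol-extracted total RNA went into an Illumina TruSeq library. The authors deposited 1 value per gene and library, taken as RPKM; no header names the unit, and it was read from the values. Bowtie 0.12.2 and mm10 are named in the submitters' processing notes; counter, annotation and strand use are not stated in the labels. For genes of at most 1000 exonic bases (GENCODE M21, 98.2% of identifiers matched), 97.8 to 98.1% of values of up to 15 reads were whole numbers of reads within 0.2, which gave their scale as 15800000 to 22100000 reads. Reads behind a value are approximate and no counting interval is given. The members and lists were chosen with earlier results of these data known.

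Genes with at least 1 RPKM in at least 3 libraries were tested on log2(RPKM + 1) in limma 3.58.1 (R 4.3.3) with a mean-variance trend, two-sided, Benjamini-Hochberg adjusted, called under 0.05; the fit was tested on simulated data. The 5 genes stay in the fit and its counts, but no test of them is used as a result. Of each list of relatives the 4 most abundant genes were named, of marker lists the 2 most abundant, given where a list is described gene by gene, and the 3 most alike genes per member; others are marked, and 1 gene under this rule is not reported here. The comparison by protein likeness was not made, as no protein sequences were used here. Alternatives were a pseudocount of 0.1, no filter, trimmed-mean scaling, quantile normalization, no trend, the replicate number as a block and each library left out; leaving out control 3 and CTX 1 together was chosen after seeing the data.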

Additional observations from a re-analysis of the deposited data

How the results depend on the processing

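The 5 genes kept a negative log2 difference in every alternative run. Leaving out libraries or a smaller pseudocount could not change this sign, since every CTX library was below every control library. The sign is thus no separate support for the difference. Leaving out 1 library at a time gave −1.51 to −1.27 for Coro2a, −1.20 to −0.94 for Osbpl3, −1.04 to −0.73 for Sectm1b, −0.74 to −0.56 for Lgals7 and −1.40 to −0.81 for Hao2. A pseudocount of 0.1 widened Coro2a to −1.66 and Sectm1b to −1.32, as a smaller pseudocount does for low genes by its construction. Counts of called genes were 0 except without CTX 1, where 2 were higher (Slc38a3 and C7) and 3 lower (Pgbd5, Mgst2 and Hao2, the last counted but not read as a test, since its choice used this contrast), so leaving out single libraries gave 0 to 2 higher and 0 to 3 lower, and 0 among relatives each time. Leaving out control 3 and CTX 1 together, chosen after seeing the data, left CTX 2 and 3 with low and controls 1 and 2 with high luteal markers. Of the 14535 tested genes 2968 were then called higher and 1870 lower, and of the 61 tested relatives and partners 9 and 14. The cause of these calls was not tested. The log2 differences in this run were −1.15 for Coro2a, −1.22 for Osbpl3, −0.68 for Sectm1b, −0.49 for Lgals7 and −1.36 for Hao2. Deviations from the group means correlated at 0.40, −0.54 and 0.60 between libraries of the same replicate number. These values cannot decide whether the numbers pair the libraries, since CTX 1 and control 3 stood apart from their groups. With a replicate block 0 genes were called. Depth limits Sectm1b most, at about 40 reads in CTX 1.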
